A study of Mus musculus with 6 samples.

Results

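The loci of 10 genes of the Hippo pathway and its transcriptional output were examined in peak lists of accessible chromatin. The genes were Ctgf, Cyr61, Ankrd1, Amotl2 and Lats2, which are targets of YAP, Yap1 and Wwtr1, which encode the coactivators YAP and TAZ, and Tead1, Tead2 and Tead4, which encode DNA-binding partners of both. Ctgf and Cyr61 are the older names of Ccn2 and Ccn1. A region belonged to a locus when any of its bases lay within 100 kb of the 5′ end of the gene in the GENCODE vM1 annotation of mm9. This rule took 87 of the 39435 regions that the lists hold in all, and no region fell in the window of more than 1 of the 10 genes.

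NMuMG cells are a mouse epithelial line established from normal mammary gland. After 6 h in serum-free medium they were given vehicle for 2 h, or TGFβ1 (5 ng/ml) for either 2 h or 12 h. Accessible DNA was read by ATAC-seq, in which the transposase Tn5 inserts adapters into open chromatin, in 2 replicates of each condition. The authors combined both replicates into 1 list of reproducible peaks per condition, so that each condition gives 1 value, no spread between replicates can be computed, and no difference between conditions was tested. Vehicle cells were collected at 2 h alone. The 12 h cells had therefore also been serum-free for longer, and treatment and time cannot be told apart in that comparison. The vehicle list gave 16765 regions after merging, the 2 h list 32548 and the 12 h list 33079. The lists hold no read counts for a region, and no value was adjusted for the read totals of the libraries. A region missing from a list may be open below the threshold of the authors. Intervals printed with shares are 95% Wilson intervals, cover counting error only, and treat neighbouring regions as if they were independent, which they are not.

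In the Hippo pathway a chain of kinases, ending in Lats1 and Lats2, phosphorylates YAP and TAZ and keeps them out of the nucleus. When the chain is silent, YAP and TAZ enter the nucleus, bind TEAD factors, which recognise the letters GGAATG in DNA, and switch on genes such as Ctgf and Cyr61. Many of the distal elements bound by TEAD also hold sites for AP-1, a dimer of Jun and Fos proteins, and Ctgf and Cyr61 are induced by TGFβ in many cell types.

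The motif matches on which the description turns are shown first. All are in mm9 (NCBIM37), read 5′ to 3′ on the strand of the gene, with positions counted from the 5′ end of the gene and negative numbers upstream. Capitals mark exact matches of the TEAD motif (GGAATG, or CATTCC when it lies on the other strand) and of the AP-1 motif (TGACTCA, or TGAGTCA on the other strand). The first set lies within the 250 bases upstream of the 5′ ends that a region covered, a length chosen after the matches were seen. In it Ctgf has 3 TEAD matches, Ankrd1 has 2, and each other gene shown has 1. Farther upstream, the region over the Wwtr1 5′ end holds more matches, at -324, -677 and -713, which are not shown.
Ctgf -125 to -6, chr10:24315123-24315242, + strand: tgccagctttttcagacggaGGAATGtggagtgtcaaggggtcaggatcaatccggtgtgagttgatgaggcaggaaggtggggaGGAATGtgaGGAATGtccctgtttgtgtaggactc
Ankrd1 -225 to -103, chr19:36194437-36194559, - strand: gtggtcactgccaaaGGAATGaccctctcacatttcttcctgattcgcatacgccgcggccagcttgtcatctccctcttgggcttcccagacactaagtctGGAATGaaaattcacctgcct
Cyr61 -133 to -68, chr3:145313017-145313082, - strand: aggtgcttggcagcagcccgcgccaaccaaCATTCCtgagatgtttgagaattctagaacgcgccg
Yap1 -161 to -116, chr9:8004712-8004757, - strand: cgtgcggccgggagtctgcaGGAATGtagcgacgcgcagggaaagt
Wwtr1 -156 to -111, chr3:57379943-57379988, - strand: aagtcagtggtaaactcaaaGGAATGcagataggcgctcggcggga
Tead1 -216 to -171, chr7:119822616-119822661, + strand: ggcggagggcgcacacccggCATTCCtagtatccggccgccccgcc

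The next set lies away from the 5′ ends. The Ctgf, Amotl2 +9424 and Lats2 stretches belong to the nearest regions held by both TGFβ lists and absent from vehicle. The Cyr61 stretch belongs to the region of that locus that widened most by 12 h and the Amotl2 +62955 stretch to the widest region of its locus at 12 h, and both were chosen after their values were seen. The short Tead4 stretch, in its untranslated first exon, holds 3 matches in a row.
Ctgf -6028 to -5906, chr10:24309220-24309342, + strand: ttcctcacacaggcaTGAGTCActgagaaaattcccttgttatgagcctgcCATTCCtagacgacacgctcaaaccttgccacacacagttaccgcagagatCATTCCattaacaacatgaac
Amotl2 +9424 to +9459, chr9:102628426-102628461, + strand: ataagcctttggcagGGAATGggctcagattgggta
Lats2 +28347 to +28393, chr14:58348832-58348878, - strand: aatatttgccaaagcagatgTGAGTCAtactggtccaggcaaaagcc
Cyr61 +16898 to +16948, chr3:145296001-145296051, - strand: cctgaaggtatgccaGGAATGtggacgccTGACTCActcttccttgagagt
Amotl2 +62955 to +63032, chr9:102681957-102682034, + strand: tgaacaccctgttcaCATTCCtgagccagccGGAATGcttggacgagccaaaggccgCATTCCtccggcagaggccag
Tead4 +340 to +366, chr6:128250475-128250501, - strand: CATTCCagcgccCATTCCgtgCATTCC

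The 10 loci held 34 regions in the vehicle list, 69 in the 2 h list and 80 in the 12 h list. All 34 regions of the vehicle list were still present at both times (100%, 89.8 to 100%). Of all vehicle regions, 96.1% were present at 2 h and 91.4% at 12 h. Of the 87 union regions, 33 were in all 3 lists, 28 were gained at both times (present in both TGFβ lists, absent from vehicle), 19 were in the 12 h list alone and 7 were in the 2 h list alone. Gained describes the lists and not a measured change of signal. Those shares, 37.9%, 32.2%, 21.8% and 8.05%, lie beside 38.4%, 28.5%, 16.3% and 12.9% of all union regions, and the interval of each share of the loci (28.5 to 48.4%, 23.3 to 42.6%, 14.5 to 31.6% and 3.95 to 15.7%) contains the share over all regions. Regions of the vehicle list that were missing from a TGFβ list numbered 0 of 87 at the loci, which allows up to 4.23%, and made up 3.80% of all union regions. At this number of regions, no difference from the rest of the genome was detectable in these shares.

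Taken by list, 35 of the 69 regions in the 2 h list lacked a vehicle counterpart (50.7%, 39.2 to 62.2%), against 50.7% of all regions of the 2 h list. At 12 h, 47 of 80 had none (58.8%, 47.8 to 68.9%), against 53.9% of all. Both shares are read against the same vehicle list. When the TGFβ lists were shortened to their widest intervals, as many as the vehicle list holds, the shares at the loci were 34.9% at 2 h and 38.3% at 12 h, and those of all regions 30.1% and 33.2%. With the shortened lists, 8 union regions at the loci were in the vehicle list and missing from a TGFβ list. That count was not computed over all regions. Of the 35 regions without vehicle at 2 h, 28 were in the 12 h list too (80.0%, 64.1 to 90.0%), where 68.2% of all such regions were.

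**Figure D1:**
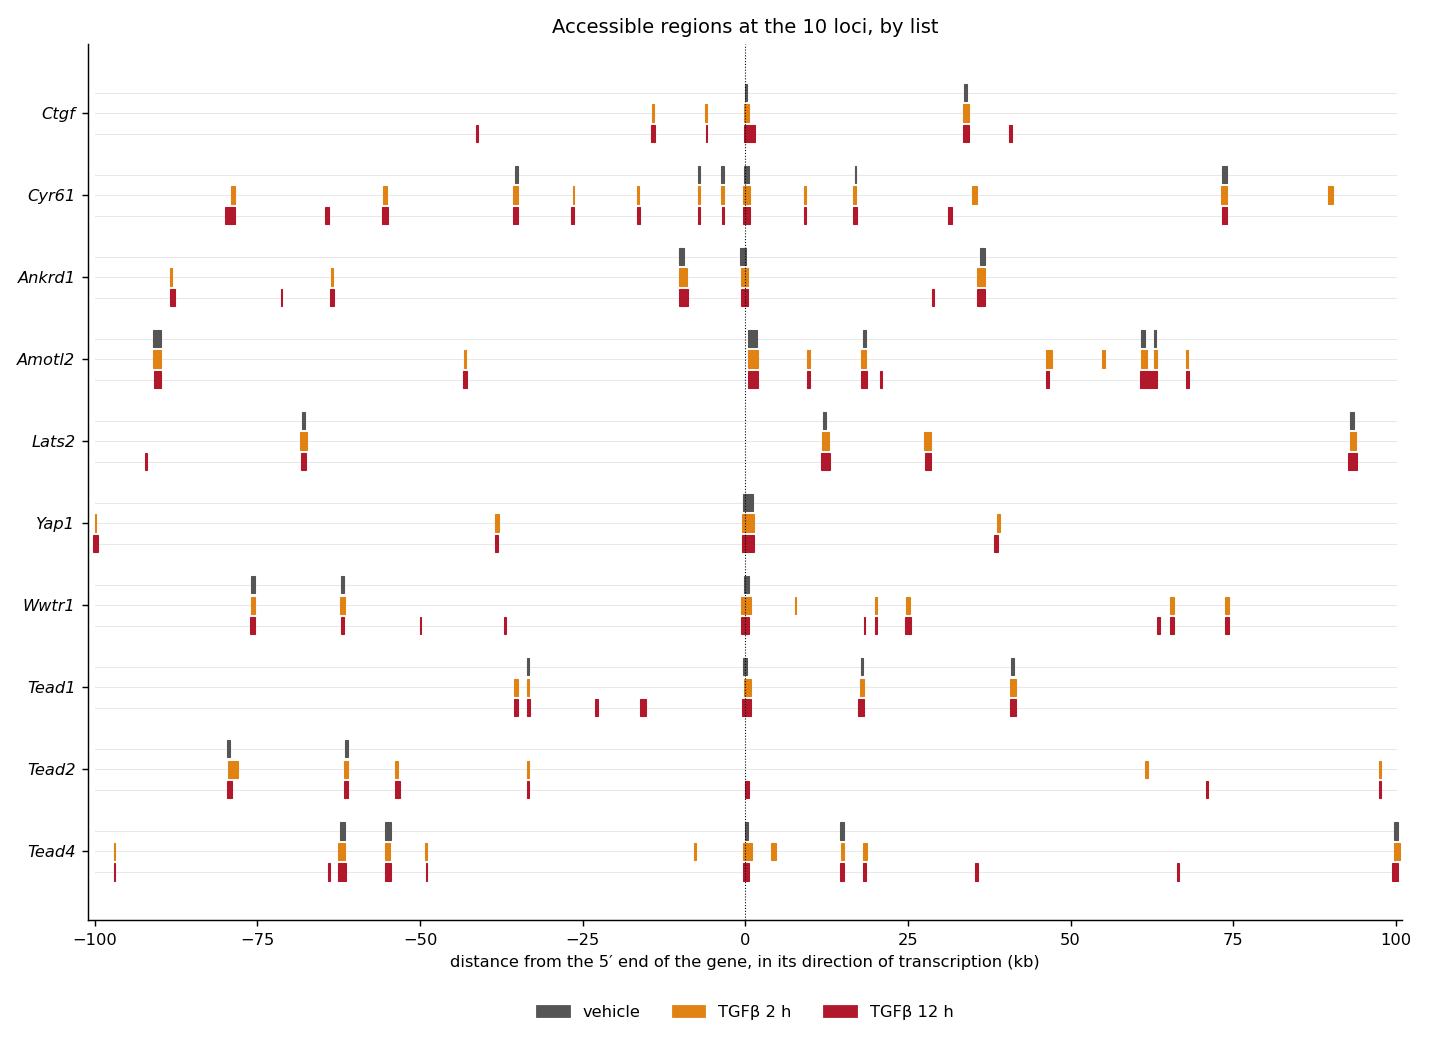
Regions at the 10 loci by distance from the 5′ end of the gene in kb, along its direction of transcription, drawn to scale in 1 row for each list (vehicle grey, TGFβ 2 h orange, TGFβ 12 h red). Every grey bar has an orange and a red bar beneath it, while 28 places have orange and red without grey, and 19 have red alone.

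**Figure D2:**
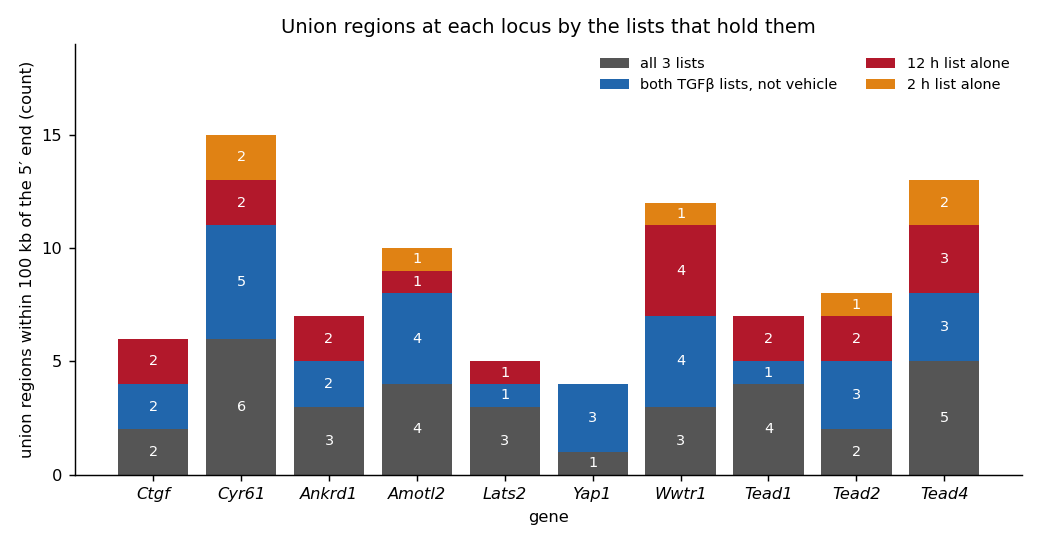
Number of union regions in the window of 100 kb around each gene start, stacked by the lists that hold them. The bars run from 4 regions at Yap1 to 15 at Cyr61, and each of the 10 genes has at least 1 region gained at both times.

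The loci differed in how many regions they held. Cyr61 had 15, Tead4 13, Wwtr1 12, Amotl2 10, Tead2 8, Ankrd1 and Tead1 7 each, Ctgf 6, Lats2 5 and Yap1 4. The median locus had 7.5 union regions (quartiles 6.25 to 11.5), and the median of 22350 protein-coding genes was 5 (quartiles 2 to 8). A region gained at both times was found at each of the 10 genes, with a median of 3. Of protein-coding genes, 62.7% had at least 1, and their median was 1. These counts were not adjusted for the larger number of regions at the loci, and the protein-coding genes include those with a 5′ end covered in no list. As a share of union regions, those gained at both times were 32.2% at the loci and 28.5% of all. Most regions lay far from the 5′ end of the gene, with a median distance of 35674 bp, though 28 of the 87 lay inside the member gene. For 55 of the 87 the nearest start of a protein-coding gene was that of the member. The other 32 lay nearer to a neighbour, as Ddah1 beside Cyr61 or Foxm1 beside Tead4, and cannot be given to the member from position alone.

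Ctgf (ENSMUSG00000019997.4, chr10:24315248-24318489, + strand) encodes a secreted matricellular protein and is among the best known YAP targets. Its 5′ end was covered in each list, by 432 bp in vehicle, 841 bp after 2 h and 1764 bp after 12 h. The 12 h region was 4.08 times as wide as that of vehicle, the highest ratio among the matched regions of the 10 loci. The widening ran mostly into the gene: the covered stretch ended at +314 in vehicle, +630 at 2 h and +1552 at 12 h, while its upstream edge went from -117 to -210 and -211. All 3 TEAD matches upstream of the 5′ end, at -105, -40 and -31, were already inside the vehicle region, and another at +673 was covered at 12 h alone. The last pair, -40 and -31, is separated by 3 bases. No region of vehicle lay upstream of the promoter. At 2 h and 12 h there were 2, the nearer at chr10:24309061-24309414, 5834 bp upstream, with 352 bp at 2 h, 277 bp at 12 h, 2 TEAD matches and 1 AP-1 match, and the farther 13952 bp upstream, with 315 bp and 600 bp and 1 match of each motif. The flanks at 41017 bp upstream and 40510 bp downstream were in the 12 h list alone. The region 33431 bp downstream was in all 3 lists with 502, 898 and 898 bp.

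Cyr61 (ENSMUSG00000028195.3, chr3:145309935-145312949, - strand) encodes a related matricellular protein. Over its 5′ end lay 795 bp in vehicle, 967 bp after 2 h and 1077 bp after 12 h, and its single upstream TEAD match, at -103, was inside all 3. Of the 15 regions of the locus, 6 were in all 3 lists and 5 were gained at both times. The nearest of the latter, 8980 bp downstream, had 350 bp after 2 h and 333 bp after 12 h and no match of either motif. The region that widened most, at chr3:145295770-145296384, 16565 bp downstream, had 203 bp in vehicle, 501 bp after 2 h and 592 bp after 12 h, a ratio of 2.92. In it, a TEAD match and an AP-1 match lay 8 bases apart. The widest region at 12 h, 78441 bp upstream with 558 bp after 2 h and 1601 bp after 12 h, was nearer to Ddah1 than to Cyr61. The region 3205 bp upstream was 1 of 3 that were narrower at 12 h than in vehicle, with 523 bp in vehicle, 582 bp after 2 h and 339 bp after 12 h.

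Ankrd1 (ENSMUSG00000024803.8, chr19:36186455-36194334, - strand) encodes an ankyrin repeat protein that moves between the sarcomere and the nucleus in muscle and is a YAP target in epithelial cells. Its 5′ end was covered by 858 bp in vehicle, 1052 bp after 2 h and 1070 bp after 12 h. The covered stretch moved into the gene, from an end at +102 in vehicle to +393 and +415, and gave up ground upstream, where it began at -755, -658 and -654. Both TEAD matches, at -210 and -123, were inside all 3. The region 8874 bp upstream was in all 3 lists too, with 707, 1199 and 1282 bp, and it widened most at this locus, by a ratio of 1.81. The nearest region gained at both times was 63197 bp upstream, with 394 and 562 bp.

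Amotl2 (ENSMUSG00000032531.8, chr9:102619002-102635748, + strand) encodes an angiomotin, which binds YAP and restrains it. No list covered the 5′ end of the gene as annotated. The nearest region began 402 bp downstream, over the starts of other transcripts, and measured 1371, 1454 and 1628 bp. Among regions matched 1 to 1 at this locus, that 17790 bp downstream widened most, with 422 bp in vehicle, 770 bp after 2 h and 847 bp after 12 h, a ratio of 2.01. The widest region at 12 h lay 60686 bp downstream, at chr9:102679688-102682334, nearest to the start of Ryk. Vehicle had 2 regions there, of 564 and 416 bp, and the 2 h list had 2, of 903 and 514 bp. At 12 h a single region of 2531 bp spanned both and the gap between them, and it was the widest of that list at the 10 loci. It therefore entered no count of matched widths with vehicle. The union region held 7 TEAD matches, of which 4 were inside the vehicle regions and 6 inside that of 12 h. The stretch of 78 bases shown above carries 3 of them. Inside the gene, the intronic region 9433 bp downstream was gained at both times, with 566 and 568 bp and 1 TEAD match.

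Lats2 (ENSMUSG00000021959.9, chr14:58260914-58377225, - strand) encodes a kinase that phosphorylates YAP and is itself a YAP target. Its 5′ end was covered in no list. The nearest region lay 11696 bp downstream over the starts of other Lats2 transcripts, and had 451 bp in vehicle, 1082 bp after 2 h and 1280 bp after 12 h, a ratio of 2.84. A region in its intron, 27428 bp downstream, was gained at both times, with 961 bp at 12 h and 1160 bp at 2 h, the widest of the 35 regions without vehicle at that time. It held 1 AP-1 match and no TEAD match. The region 92666 bp downstream, inside the annotated Lats2 gene and over the start of Xpo4, widened from 508 bp in vehicle to 977 bp and 1410 bp.

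Yap1 (ENSMUSG00000053110.7, chr9:7931999-8004596, - strand) is the gene of YAP itself. The region over its 5′ end was the widest in vehicle among the 10 loci, 1644 bp, and measured 1695 bp after 2 h and 1705 bp after 12 h, ratios of 1.03 and 1.04. It was also the sole vehicle region of that locus. The other 3 regions were gained at both times, the nearest in an upstream neighbour 37854 bp away with 563 and 384 bp, and the next in an intron of Yap1, 38294 bp downstream, with 488 and 583 bp.

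Wwtr1 (ENSMUSG00000027803.8, chr3:57259571-57379832, - strand), the gene of TAZ, had 796 bp over its 5′ end in vehicle, 1674 bp after 2 h and 1336 bp after 12 h. The upstream edge went from -182 in vehicle to -728 and -733. With it, 3 TEAD matches at -324, -677 and -713 came inside both TGFβ regions, while the match at -136 was inside all 3. Downstream, the introns and exons of Wwtr1 held 7 regions, none of them in the vehicle list: 4 were in both TGFβ lists, 2 in the 12 h list alone and 1 in the 2 h list alone. The nearest of those in both TGFβ lists was 19964 bp downstream with 353 and 307 bp.

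Tead1 (ENSMUSG00000055320.8, chr7:119822832-120050319, + strand) showed a wider region over its 5′ end at each time, with 655 bp in vehicle, 1137 bp after 2 h and 1373 bp after 12 h, which made it the widest of its locus. Its 3 TEAD matches near the 5′ end, at -196, +25 and +37, were inside all 3 lists. Among the 10 genes it had the most regions with a TEAD match in proportion, 6 of 7. The intronic region 17404 bp downstream went from 292 bp to 636 bp and 841 bp, a ratio of 2.88. Upstream, the regions at 15276 and 22660 bp were in the 12 h list alone, with 977 and 501 bp, and each held 1 TEAD match. The region gained at both times lay 34898 bp upstream, with 586 bp after 2 h and 623 bp after 12 h and 1 TEAD match.

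Tead2 (ENSMUSG00000030796.8, chr7:52471123-52489005, + strand) was the gene whose own 5′ end was covered in the 12 h list alone, by 644 bp without a TEAD match. Its 2 vehicle regions, 77942 and 61018 bp upstream, lay over the starts of other genes, Flt3l and Pih1d1. The first had 477 bp in vehicle, 1644 bp after 2 h and 871 bp after 12 h, the highest ratio at 2 h among the 10 loci, 3.45. The 3 regions gained at both times lay at least 33183 bp away, and none of them held a TEAD match. The nearest region with one lay 70871 bp downstream, in the 12 h list alone with 297 bp.

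Tead4 (ENSMUSG00000030353.9, chr6:128174306-128250841, - strand) had 585 bp over its 5′ end in vehicle, 1298 bp after 2 h and 929 bp after 12 h, and the 3 TEAD matches at +340, +352 and +361 were inside every list. The nearest region gained at both times was intronic, 18065 bp downstream, with 586 and 562 bp and 1 TEAD match. An intronic region 3931 bp downstream, of 792 bp with 2 TEAD matches, was in the 2 h list alone. The region 14568 bp downstream was the single one of 34 matched regions that was narrower at 2 h, with 539 bp in vehicle, 384 bp after 2 h and 574 bp after 12 h. The widest region at 12 h lay 61439 bp upstream over the start of 5930416I19Rik, with 871 bp in vehicle, 942 bp after 2 h and 1113 bp after 12 h and no TEAD match.

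**Figure D3:**
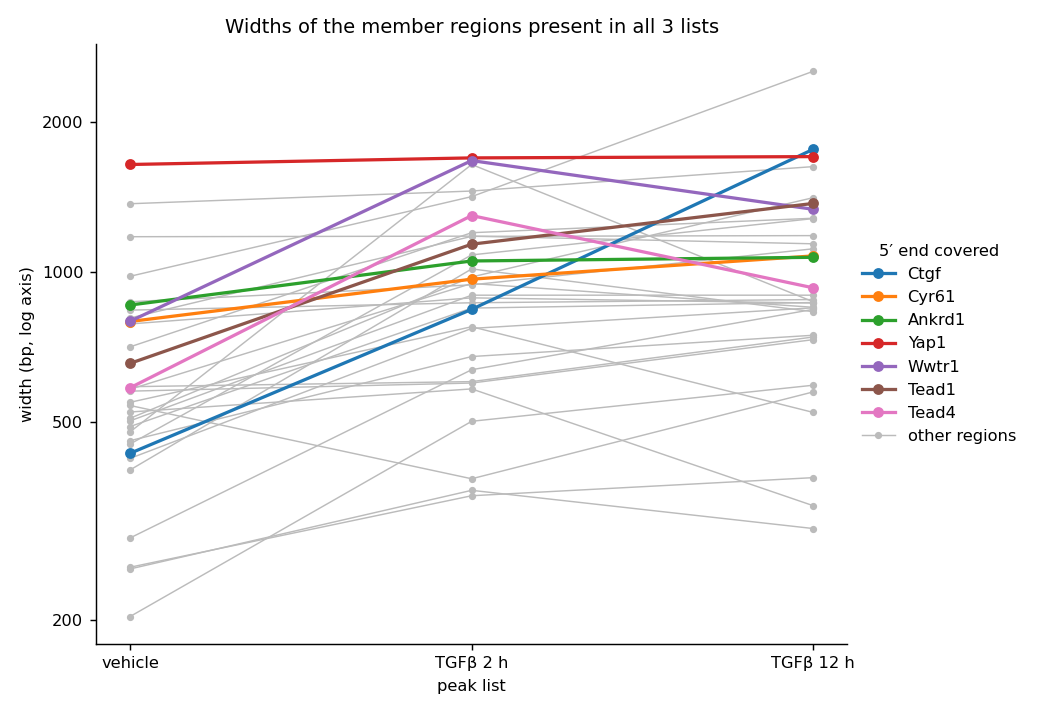
Width in bp (log axis) of the 33 member regions present in all 3 lists, 1 line per region, with the 7 that cover a 5′ end in colour and the others in grey. The grey line of the Amotl2 region 60686 bp downstream sums 2 separate regions in vehicle (980 bp) and at 2 h (1417 bp). Its 12 h value of 2531 bp includes the gap between them, so this line does not show a matched widening. Ctgf climbs from 432 to 1764 bp, Yap1 goes from 1644 to 1705 bp, and Wwtr1 and Tead4 are widest at 2 h.

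Over all loci, matched regions were mostly wider in the TGFβ lists. Of 34 vehicle regions matched to a single region at 2 h, 33 were wider (97.1%, 85.1 to 99.5%), against 82.7% of all matched regions. Their median width was 556 bp in vehicle and 900 bp at 2 h, and the median ratio was 1.47, where that of all regions was 1.24. At 12 h, 29 of 32 were wider (90.6%, 75.8 to 96.8%), against 83.6% of all, with a median ratio of 1.49 beside 1.28. Regions at least 1.5 times as wide as in vehicle numbered 16 of 34 at 2 h (47.1%, 31.5 to 63.3%), where 32.3% of all were, and 16 of 32 at 12 h (50%, 33.6 to 66.4%), where 35.6% were. From 2 h to 12 h, 38 of 60 were wider (63.3%, 50.7 to 74.4%), against 57.0% of all. The interval of the share wider at 2 h lay above the value of all regions as processed here. This did not hold under either other processing for which all regions were also computed. The share was 31 of 35 (88.6%, 74.0 to 95.5%, all regions 81.2%) when intervals were matched without merging. It was 25 of 28 (89.3%, 72.8 to 96.3%, all regions 79.8%) with the TGFβ lists shortened to the length of the vehicle list. For the remaining alternatives the value of all regions was not computed. With the shortened lists 27 of 35 were wider at 12 h than at 2 h (77.1%, 61.0 to 87.9%, all regions 59.0%). At the loci of the 18 further YAP target genes, 70 of 77 were wider at 2 h than in vehicle (90.9%, 82.4 to 95.5%). The mapped and filtered reads that the study states for each library were fewest at 12 h and highest in a vehicle library. The part of depth in these widths was not tested.

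By role, the median ratio from vehicle to 12 h was 1.63 for 17 regions at the loci of the 5 target genes. It was 1.15 for 4 regions at the 2 coactivator loci, 1.51 for 11 at the 3 TEAD loci and 1.28 for all regions. Some of these regions lay over or nearest to the start of another gene, as Xpo4 at Lats2 or Commd2 at Wwtr1. The ratios therefore describe windows and not the genes themselves, and differences between roles were not tested. Regions without vehicle were narrower than the shared ones of the same list, with medians of 394 and 900 bp at 2 h and of 501 and 880 bp at 12 h, and the medians over all regions were 423 and 808 bp, and 452 and 854 bp. Shared regions lay more often near a start: 20 of 33 were within 1000 bp of the start of a protein-coding transcript (60.6%, all regions 55.1%), and 2 of the 28 gained at both times were (7.14%, 1.98 to 22.6%, all regions 10.6%). Those 28 comprised 16 intergenic, 10 intronic and 2 exonic regions.

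**Figure D4:**
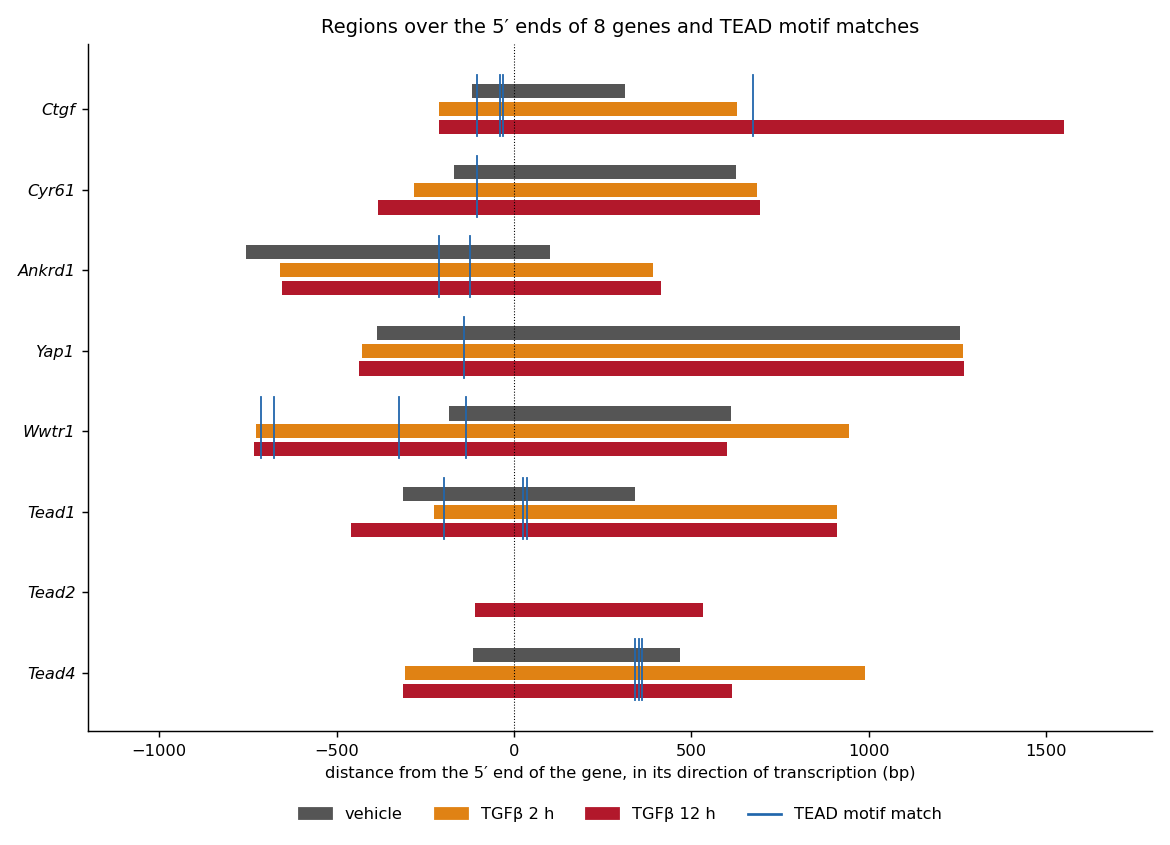
Regions over the 5′ ends of the 8 genes where a list covered it, by distance in bp, in 1 row for each list (vehicle grey, TGFβ 2 h orange, TGFβ 12 h red), with blue ticks at exact TEAD motif matches. The ticks upstream of Ctgf, Cyr61, Ankrd1 and Yap1 lie within all 3 bars, those at -324 to -713 of Wwtr1 lie in the TGFβ bars, and Tead2 has a 12 h bar alone without a tick.

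The TEAD motif was found in 43 of the 87 union regions (49.4%, 39.2 to 59.7%), against 35.7% of all union regions, whose median width was 614 bp beside 644 bp at the loci. In 500 bases around the centre of each region the shares were 40.2% and 28.1%. The match was most frequent in the regions of all 3 lists, in 23 of 33 (69.7%, 52.7 to 82.6%), against 41.1% of all such regions, which were also narrower, with a median of 954 bp beside 1077 bp. In regions gained at both times it was found in 14 of 28 (50%, 32.6 to 67.4%, all such regions 38.1%). In regions of 1 TGFβ list alone it was found in 4 of 19 at 12 h (21.1%, 8.51 to 43.3%, all such regions 29.5%) and in 2 of 7 at 2 h (28.6%, 8.22 to 64.1%, all such regions 24.2%). Several of these genes are textbook TEAD targets, and the share is given as a description.

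The AP-1 motif was found in 35 of the 87 (40.2%, 30.6 to 50.7%), against 41.8% of all. It was in 9 of 33 regions of all 3 lists (27.3%) and in 14 of 28 regions gained at both times (50%), and all such regions gave 35.4% and 54.0%. Both motifs were in 16 of 87 (18.4%), where 16.4% of all regions had both. Since CATTCC begins with the last letters of TGACTCA, the matches can overlap by 2 bases. The SMAD palindrome GTCTAGAC, the same on either strand, was found in 0 of 87, which allows up to 4.23%, and in 1.23% of all regions.

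Each match was also placed in the lists. Of the 72 TEAD matches at the loci, 33 were inside a vehicle region (45.8%, 34.8 to 57.3%), 63 inside a 2 h region (87.5%) and 67 inside a 12 h region (93.1%). Over all regions the shares were 31.3%, 75.7% and 80.9%. The 47 AP-1 matches stood at 11 in vehicle (23.4%), 33 at 2 h (70.2%) and 43 at 12 h (91.5%), beside 29.1%, 77.7% and 87.7% over all regions. A match is a stretch of letters and shows nothing of which protein was bound.

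In the 250 bases upstream of a covered 5′ end, 6 of the 8 genes had a TEAD match (75.0%, 40.9 to 92.9%), with 3 at Ctgf, 2 at Ankrd1 and 1 each at Cyr61, Yap1, Wwtr1 and Tead1, and none at Tead2 and Tead4. Of 9586 covered 5′ ends of protein-coding genes, 952 had one (9.93%), and 7 had 3 or more (0.0730%). Among other pathway components 6 of 17 covered 5′ ends had a match (35.3%, 17.3 to 58.7%), and among further YAP targets 2 of 16 (12.5%, 3.50 to 36.0%). The length of 250 bases was chosen after the matches were seen. With 100 bases, 1 of 8 had a match (12.5%), against 3.20% of all, and with the longer motif GGAATGT in 250 bases, 3 of 8 (37.5%), against 2.13%.

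**Figure D5:**
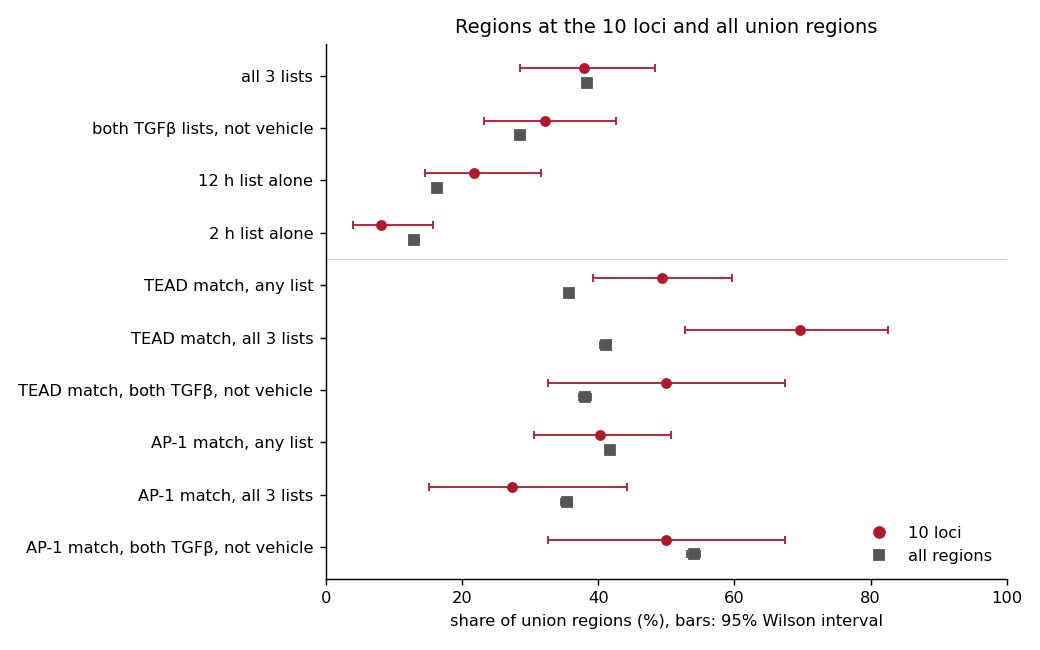
Shares of union regions in percent at the 10 loci (red circles, n = 87) and over all regions (grey squares, n = 39435), by the lists that hold them and by TEAD or AP-1 match, with 95% Wilson intervals. The TEAD shares of the loci for any list, 49.4%, and for all 3 lists, 69.7%, are the ones whose intervals lie above the value of all regions.

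Other genes of the pathway gave a comparison. Around 19 further components, among them the kinases Stk3, Stk4 and Lats1 and the adaptor Sav1, 131 union regions were found. Of these, 66 were in all 3 lists (50.4%, 41.9 to 58.8%) and 34 were gained at both times (26.0%, 19.2 to 34.1%), and 12 of the 19 genes had at least 1 of the latter. Stk3, Stk4, Sav1, Mob1a, Nf2, Limd1 and Amot had none, and Lats1 had 1. Wwc1, Amotl1 and Vgll4 had 4 each, and Tead3, another TEAD factor, had 7. The TEAD motif was in 48 of the 131 (36.6%). Their median ratio of widths was 1.21 at 2 h and 1.22 at 12 h, and 6 of the 131 regions were in the vehicle list and missing from a TGFβ list. Around 18 further YAP target genes, 189 union regions included 70 in all 3 lists (37.0%) and 50 gained at both times (26.5%), and 17 of 18 genes had at least 1 of the latter. The exception was Tgfb2, the gene of a TGFβ ligand. The TEAD motif was in 74 of the 189 (39.2%), the median ratios were 1.44 at 2 h and 1.38 at 12 h, and 10 regions of the vehicle list were missing from a TGFβ list.

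The annotated 5′ ends of marker genes were also read, and regions over other starts of these genes were not counted. Among 6 epithelial genes, vehicle covered Krt8 and Krt18, and both TGFβ lists also covered Cdh1, while Epcam, Krt19 and Cldn7 were covered in none. Of 5 genes of blood, endothelium and muscle (Ptprc, Cd3e, Pecam1, Cdh5 and Myod1), 0 were covered in any list. Of all protein-coding genes, 35.9% were covered in vehicle, 41.4% at 2 h and 41.6% at 12 h.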

How the data were processed

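ATAC-seq peak lists of NMuMG cells were used, 1 per condition, each made by the authors from 2 replicates. The authors trimmed, aligned to mm9 and filtered the reads with the ENCODE pipeline, called peaks with MACS2 2.1.2 (version from the processing notes of the submitters) and kept peaks reproducible between replicates by IDR. The deposited lists hold peak starts and ends in bases. The vehicle list also holds a deposited score of 540 to 1000 without a stated scale, which was not used for any comparison. In both TGFβ lists that column numbers the lines.

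Identical intervals were counted once, those under 150 bp dropped, gaps under 1000 bp merged in each list and again over all lists, and 1 bp of overlap counted as shared. The widths of matched regions were compared where 1 region met 1 region. Motifs were exact matches in the NCBIM37 sequence, on both strands. The 3 lists gave no test. The members and gene lists were chosen with earlier results of these data known. The text could name the region at or nearest the 5′ end, the nearest gained at both times, the widest of the 12 h list, the one that widened most, those missing from a TGFβ list and the nearest with a TEAD match, and regions named beside these were chosen after their values were seen. Interval merging and overlap were compared with direct counts on simulated data (0 of 4799 wrong). Merges without a gap distance are in that total but were not compared. Alternatives varied merging, width, window, overlap and motif. Python 3.11.15, numpy 2.4.6, scipy 1.17.1 and matplotlib 3.10.9 were used. One marker gene of the fixed list is not reported here.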

Additional observations from a re-analysis of the deposited data

How the results depend on the processing

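Of 17 results under 15 alternatives, 90 values were kept and 46 moved, most of them counts that follow the number of regions admitted. No paired analysis was possible because each condition has 1 list made from both replicates, and for the same reason no replicate was left out. Merging under 500 or 2000 bp and a window around any transcript start moved no value. Without a minimum width, 1 member region was in the vehicle list and missing from a TGFβ list. With intervals at or above the median width of their list, 55 union regions remained, with 19 in vehicle, 43 at 2 h, 47 at 12 h, 16 in all 3 lists, 11 at 12 h alone, and 3 of the vehicle list and missing after TGFβ, and 77.1% of matched regions were wider at 12 h than at 2 h. With the TGFβ lists shortened to the length of the vehicle list, there were 43 regions at 2 h and 47 at 12 h, 9 gained at both times, 9 at 12 h alone, and 8 of the vehicle list and missing after TGFβ, 34.9% and 38.3% of the TGFβ regions had no vehicle region, and 77.1% were wider at 12 h than at 2 h. A window of 50 kb gave 54 union regions, with 21 in vehicle, 42 at 2 h, 50 at 12 h, 21 in all 3 lists, 17 gained at both times, 12 at 12 h alone and 4 at 2 h alone. A window of 200 kb gave 156, with 64, 125 and 142 by list, 61 in all 3 lists, 49 gained at both times, 32 found at 12 h alone, 12 found at 2 h alone, and 2 of the vehicle list and missing after TGFβ. Keeping regions with the member start nearest gave 55, with 20, 43 and 50 by list, 20 in all 3 lists, 18 gained at both times and 12 at 12 h alone. At 50% reciprocal overlap, 62.3% at 2 h and 70.0% at 12 h had no vehicle region. The longer TEAD motif was in 23.0% of member regions and 12.5% of all. With 100 bases upstream, or the longer motif, 12.5% and 37.5% of covered 5′ ends had a match, alternatives added after the data were seen. Fewer intervals or a narrower window admit fewer regions by construction. The cause of the other moves was not tested.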
